A study of Mus musculus with 7 samples.

Results

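The genes described here carry glucose through the cell: the enzymes of core glycolysis, the PFKFB enzymes that set its pace, the genes of lactate, glucose uptake, the pentose phosphate route, gluconeogenesis and glycogen. They were chosen by name, 40 in all, and 34 had a probe set assigned to them alone, of 22180 genes measured. Gpi1, Aldoa, Eno1, Pfkfb1, G6pdx and Tkt had no such probe set and were not analysed here. The measured genes comprised 13 of 16 in core glycolysis, 3 of 4 PFKFB enzymes, 4 of 4 lactate genes, 3 of 3 glucose carriers, 2 of 4 pentose phosphate genes, 4 of 4 gluconeogenic genes and 5 of 5 glycogen genes. Pgm2 was counted with glycogen, a place that its symbol leaves uncertain.

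RNA came from the gastric corpus, the acid-secreting part of the stomach, of mice aged 8 to 12 weeks, on 7 single-channel arrays. All groups, the control included, carried the Atp4b-DTR transgene, a diphtheria toxin receptor named for a proton pump gene of parietal cells, which secrete acid. The toxin groups had received 225 ng of diphtheria toxin per mouse by intraperitoneal injection on each of 3 days and were sampled 24 h (1 array), 36 h (1 array), 48 h (2 arrays) and 72 h (2 arrays) after the last dose. The control group (1 array) had received saline on the same scheme, and the labels give no further allele or agent for any group. The study was designed to follow parietal cells as they are lost and return. Values are log2 signal as the authors deposited it, on which 1 unit is a 2-fold difference, and signals of different probe sets were not set against each other.

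Glycolysis splits glucose into pyruvate in the cytosol with a small yield of ATP, and pyruvate then enters mitochondria or is reduced to lactate. Phosphofructokinase is its main control point, and the PFKFB enzymes make and break the sugar bisphosphate that activates it. The pentose phosphate route diverts the same sugar towards NADPH and ribose, which growing cells need. Parietal cells are packed with mitochondria and drive the proton pump mainly by oxidative metabolism. The factors HIF and MYC are known to act on glycolytic genes through short promoter sequences that contain the letters CGTG.

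Promoter windows of RefSeq (GRCm38.p6, 300 bases, 250 before to 50 after the start) were matched by symbol for 32 of the 34 genes, in 43 windows. Slc2a3 and Slc2a4 had no entry. ACGTG, read on both strands, stood in 51.2% of these windows and in 19.6% of all 32851 windows. GCGTG, likewise on both strands, stood in 58.1% of these windows and in 32.4% of all windows. Each CACGTG counts as ACGTG on both strands. The windows of these genes held a median of 15 CG pairs and all windows a median of 7, and both motifs contain a CG. A match describes letters, and says nothing of binding. The windows of Pfkfb3, which has 2 starts in the table, and of Ldhb and Fbp2 are printed because Pfkfb3 and Ldhb lay more than 1 log2 unit below the control at 24 h and Fbp2 lay above it on all 6 toxin arrays. They are written 5′ to 3′ along the gene, with the motifs in capitals.
Pfkfb3, chr2:11553880-11554179, minus strand: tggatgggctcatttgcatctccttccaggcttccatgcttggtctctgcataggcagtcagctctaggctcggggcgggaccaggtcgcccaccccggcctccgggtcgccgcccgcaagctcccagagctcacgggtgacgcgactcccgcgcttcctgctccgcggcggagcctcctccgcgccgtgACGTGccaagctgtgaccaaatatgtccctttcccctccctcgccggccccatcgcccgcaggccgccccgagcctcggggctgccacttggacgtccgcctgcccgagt
Pfkfb3, chr2:11502041-11502340, minus strand: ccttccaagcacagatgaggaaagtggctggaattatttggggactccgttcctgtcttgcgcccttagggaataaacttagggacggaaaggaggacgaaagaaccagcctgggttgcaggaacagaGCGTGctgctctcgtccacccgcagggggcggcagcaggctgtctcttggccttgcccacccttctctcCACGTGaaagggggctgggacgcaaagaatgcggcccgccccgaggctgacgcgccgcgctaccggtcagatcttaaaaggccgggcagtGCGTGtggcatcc
Ldhb, chr6:142507908-142508207, minus strand: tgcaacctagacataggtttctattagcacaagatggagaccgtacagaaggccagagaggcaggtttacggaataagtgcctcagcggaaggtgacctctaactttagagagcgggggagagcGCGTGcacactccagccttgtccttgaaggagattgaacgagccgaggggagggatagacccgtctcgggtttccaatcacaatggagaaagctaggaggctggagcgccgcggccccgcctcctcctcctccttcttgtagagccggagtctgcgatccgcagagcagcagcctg
Fbp2, chr13:62858351-62858650, minus strand: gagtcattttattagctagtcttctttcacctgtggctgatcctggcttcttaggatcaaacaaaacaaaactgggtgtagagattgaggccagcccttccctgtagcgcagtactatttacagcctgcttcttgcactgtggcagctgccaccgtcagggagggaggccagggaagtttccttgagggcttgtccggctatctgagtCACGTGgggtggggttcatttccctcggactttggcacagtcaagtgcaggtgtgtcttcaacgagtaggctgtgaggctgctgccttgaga
The first Pfkfb3 window held 1 ACGTG. The second held a CACGTG, counted on both strands, and 2 GCGTG. The Ldhb window held 1 GCGTG, and the Fbp2 window a CACGTG.

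Genes of parietal cells were lowest at 24 h and nearest the control at 72 h. Atp4b had a log2 signal of 10.68 after 24 h, 12.33 after 36 h, 11.66 and 12.39 after 48 h, and 12.65 and 12.92 after 72 h, against 12.94 on the control array. Of 18 parietal cell genes 16 were below the control on all 6 toxin arrays (88.9%, beside 22.6% of all genes). Their summed linear signal ranged from 17741 at 24 h to 31265 on the second 72 h array, against 38676 in the control. The gene listed as Gif or Cblif stands in this list and also in the list of chief cell genes used below. Genes of cell division went the other way, with all 10 above the control on every toxin array and a summed signal of 1577 to 3221, against 1114 in the control. In whole tissue, fewer cells of a type and less RNA per cell cannot be told apart. The 24 h and control arrays shared a high signal of the female RNA Xist (9.17 and 8.13), which lay at 2.70 to 3.27 on the other 5 arrays, so toxin and sex pattern cannot be told apart at 36, 48 or 72 h against the control, nor time and sex pattern between 24 h and later arrays. The second 48 h array stood apart in albumin (Alb), the main protein of liver secretion, at 9.60, against 4.70 to 5.49 on the other toxin arrays and 4.49 in the control. Of 7 hepatocyte genes, 3 were above the control on that array (Alb, Cps1 and Ahsg), 3 below (Apoa1, Apob and Ttr) and 1 level (Serpina1a).

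No glycolysis or glucose handling gene passed limma's adjusted p of 0.05 in any of 4 comparisons, and neither did any other gene: 0 of 34 were called, with 0.0% of all genes called in each. The smallest adjusted p over all genes was 0.120 for 48 h against control, 0.146 for 72 h against control, 0.705 for 72 h against 48 h and 0.380 for the slope over recovery. At an unadjusted p under 0.05, 11 of the 34 genes (32.4%) stood apart at 48 h, 2 higher and 9 lower, beside 19.7% of all genes. At 72 h it was 8 (23.5%), 2 higher and 6 lower, beside 17.9% of all genes. Between 72 h and 48 h it was 6, all higher at 72 h (17.6%), beside 7.07%, and in the slope over the 6 toxin arrays 7, all positive (20.6%), beside 8.7%. The share at 72 h against the control lay nearest its background.

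These counts rest on few arrays. Without the second 48 h array 12 of the 34 had an unadjusted p under 0.05 at 48 h (35.3%), 7 higher and 5 lower, beside 20.7% of all genes. Between 72 h and 48 h it was then 7 (20.6%), 1 higher and 6 lower, beside 12.7%. Without the first 48 h array it was 11 at 48 h (32.4%), 5 higher and 6 lower, beside 23.8%, and 4 between 72 h and 48 h (11.8%), all higher, beside 14.7%, so the share no longer exceeded that of all genes. The direction of the 72 h against 48 h counts thus turned on which 48 h array was used. Without the second 72 h array that comparison had 2 (5.88%, beside 9.91%). In the slope, 2 genes (5.88%, 1 higher and 1 lower) had such a p without the 24 h array, which alone among toxin arrays shared the control's sex pattern, beside 6.9% of all genes. Without the second 72 h array 1 gene had it (2.94%, beside 6.52%). In both cases the share in the slope lay below that of all genes.

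As a group the genes had medians near the control level, with single genes on both sides of it. The median log2 difference from the control was -0.17 after 24 h, -0.03 after 36 h, -0.05 and -0.11 after 48 h, and -0.00 and -0.05 after 72 h, where all genes had 0.00 on every array. After a further quantile normalisation the medians at 36 h and on the second 72 h array were above 0. On all 6 toxin arrays 12 of the 34 lay below the control (35.3%, beside 22.6% of all genes), and 5 lay above it (14.7%, beside 20.2%). The 12 were Pfkl, Pfkm, Aldoc, Pgam1, Pkm, Pfkfb2, Pfkfb3, Ldhb, Slc2a3, Slc2a4, Pck2 and Pygm. The 5 were Pgd, Taldo1, Fbp1, Fbp2 and Pgm2, of which Fbp1 stayed within 0.12 of the control. With quantile normalisation repeated, 10 were below (29.4%, beside 21.6% of all genes) and 9 above (26.5%, beside 23.0%).

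**Figure D1:**
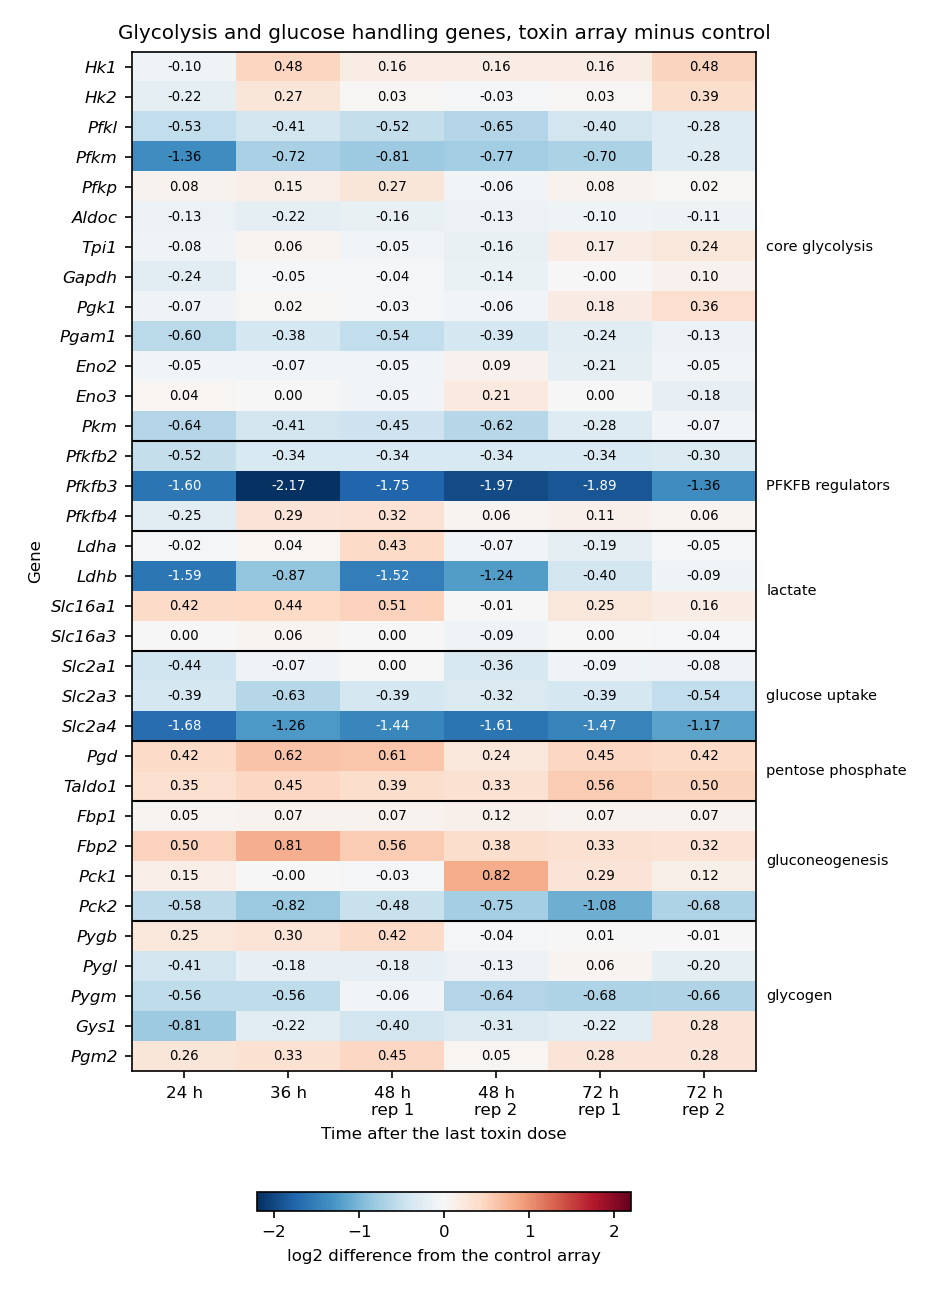
Each cell gives the log2 difference of 1 toxin array from the control array for 1 of the 34 measured genes, with genes in rows by role and arrays in columns by time after the last toxin dose; blue is lower and red is higher than the control. Pfkfb3 and Slc2a4 are more than 1 log2 unit below the control in all 6 columns, and Pgd, Taldo1 and Fbp2 are above it in all 6.

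At 24 h 4 of the 34 genes were at least 2-fold below the control, namely Pfkm, Pfkfb3, Ldhb and Slc2a4, beside 1.67% of all genes, and 0 were at least 2-fold above it, beside 1.2%. At 36 h Pfkfb3 and Slc2a4 were at least 2-fold below, beside 1.61% of all genes, and 0 were above, beside 0.933%. These groups have 1 array each, so neither count carries a test. Between the arrays of a pair 0 of the 34 were 2-fold apart (0.482% of all genes at 48 h and 0.32% at 72 h), and the median gap was 0.16 at 48 h and 0.12 at 72 h.

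Among the core enzymes, the phosphofructokinase subunits Pfkm and Pfkl and the last enzymes Pgam1 and Pkm lay below the control throughout, while Gapdh, Tpi1 and Pgk1 stayed near it. Pfkm, the muscle-type subunit, had 5.62 after 24 h, 6.25 after 36 h, 6.17 and 6.21 after 48 h, and 6.27 and 6.70 after 72 h, against 6.97 in the control. The 24 h array was lowest, the second 72 h array came nearest the control, and no toxin array reached it. The limma difference at 48 h was -0.79 ± 0.21 (SE; adjusted p = 0.212), and the slope was 0.35 ± 0.11 per 24 h (adjusted p = 0.489), or 0.20 without the 24 h array, which has the other sex pattern. Pfkl, the liver-type subunit, had 7.15 after 24 h, 7.28 after 36 h, 7.16 and 7.04 after 48 h, and 7.28 and 7.41 after 72 h, against 7.69 in the control. Its difference was -0.58 ± 0.10 at 48 h (adjusted p = 0.140) and -0.34 ± 0.10 at 72 h (adjusted p = 0.245). The third subunit gene, Pfkp, did not share this: its toxin arrays lay on both sides of the control, between -0.06 and 0.27 from it.

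Gapdh, the dehydrogenase in the middle of the pathway, had 11.61 after 24 h, 11.80 after 36 h, 11.82 and 11.72 after 48 h, and 11.85 and 11.95 after 72 h, against 11.85 in the control. It differed from the control by -0.09 ± 0.08 at 48 h (adjusted p = 0.713), and its sign at 36 h and on the first 72 h array turned or vanished under quantile normalisation. Gapdh has many near-identical pseudogenes, and 8 further probe sets shared with them were left out, so its signal is uncertain. Of its other single-gene probe sets, 1 lay below the control on all 6 toxin arrays, at -0.52 at 24 h and -0.11 on the second 72 h array, where the set used was 0.10 above. The other lay -0.31 from the control at 24 h and 0.02 on the second 72 h array. Pkm, the pyruvate kinase gene, had 10.39 after 24 h, 10.62 after 36 h, 10.57 and 10.41 after 48 h, and 10.75 and 10.96 after 72 h, against 11.03 in the control. The difference was -0.54 ± 0.14 at 48 h (adjusted p = 0.204). On the second 72 h array Pkm lay 0.03 above the control after quantile normalisation.

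Pgam1, a phosphoglycerate mutase, had 8.34 after 24 h, 8.55 after 36 h, 8.40 and 8.54 after 48 h, and 8.69 and 8.80 after 72 h, against 8.93 in the control. The 24 h array was lowest, both 72 h arrays were highest among the toxin arrays, and none reached the control. A second Pgam1 probe set lay -1.11 from the control at 24 h and 0.27 on the second 72 h array, so the probe sets parted there. Tpi1 and Pgk1, whose enzymes act next to Gapdh, were above the control on both 72 h arrays and below it on both 48 h arrays, except that Pgk1 was above it on all 4 after quantile normalisation. Tpi1 had 9.26 after 24 h, 9.41 after 36 h, 9.29 and 9.19 after 48 h, and 9.51 and 9.59 after 72 h, against 9.34 in the control. Pgk1 had 9.26 after 24 h, 9.36 after 36 h, 9.31 and 9.27 after 48 h, and 9.52 and 9.70 after 72 h, against 9.34 in the control. The hexokinase genes Hk1 and Hk2, which trap glucose in the cell, ranged from -0.10 to 0.48 and from -0.22 to 0.39, on both sides of the control. Aldoc, Eno2 and Eno3, isoforms of aldolase and enolase typical of nerve and muscle, stayed within 0.22 of the control on every toxin array.

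Several of these enzymes were higher at 72 h than at 48 h. In 11 of the 34 genes both 72 h arrays lay above both 48 h arrays (32.4%, beside 16.7% of all genes), and in 2, Fbp2 and Pygm, they lay below (5.88%, beside 13.0%). The 11 were Pfkl, Pfkm, Aldoc, Tpi1, Gapdh, Pgk1, Pgam1, Pkm, Ldhb, Taldo1 and Gys1, 8 of them core enzymes. The 24 h array lay below both 72 h arrays in 20 of the 34 (58.8%, beside 32.0% of all genes) and above both in 7 (20.6%, beside 30.8%). Over 72 h against 48 h, arrays of the same sex pattern, the differences were 0.31 ± 0.06 for Tpi1, 0.32 ± 0.08 for Pgk1, 0.27 ± 0.08 for Pgam1 and 0.37 ± 0.11 for Pkm (adjusted p = 0.705 each). With an array fewer the condition is easier to meet: without the first 48 h array it held for 21 genes (61.8%, beside 34.2% of all genes), and without the second for 12 (35.3%, beside 31.7%), a share near the background. Without the first 72 h array it held for 16 (47.1%, beside 31.4%), and without the second for 13 (38.2%, beside 30.1%). The parietal cell list moved with this, with medians of -0.74 and -0.32 on the 72 h arrays, against -1.23 and -0.86 on the 48 h arrays, and its part in the result was not tested.

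**Figure D2:**
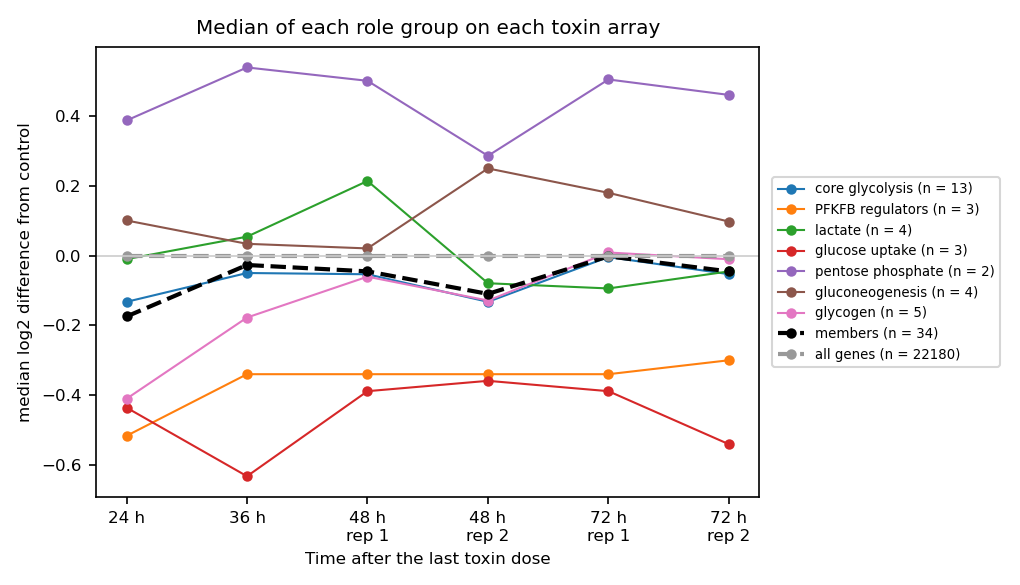
Lines join the median log2 difference from the control array (vertical axis) of each role group on the 6 toxin arrays (horizontal axis, in order of time after the last dose and not to scale), with all 34 genes in black and all 22180 genes in grey, both dashed. The pentose phosphate genes lie above 0 on every array, the PFKFB and glucose uptake genes lie below -0.29, and the core enzymes stay between -0.14 and 0, but lie above 0 at 36 h and on the second 72 h array after a further quantile normalisation.

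Pfkfb3, the PFKFB enzyme that most favours synthesis of the activator of phosphofructokinase, had the lowest difference from the control among the 34 genes on every toxin array except that of 24 h, where Slc2a4 was lower. It had 5.85 after 24 h, 5.28 after 36 h, 5.70 and 5.49 after 48 h, and 5.57 and 6.09 after 72 h, against 7.45 in the control. The toxin arrays spread over less than 1 unit and all lay more than 1 unit below the control, at 22.2% to 39.0% of its linear signal. The limma difference was -1.86 ± 0.28 at 48 h (adjusted p = 0.133) and -1.62 ± 0.28 at 72 h (adjusted p = 0.166). Pfkfb2, the heart-type isoform, had 7.15 after 24 h, 7.33 after 36 h and on both 48 h arrays, and 7.33 and 7.37 after 72 h, against 7.67 in the control. Its 7 arrays held only 4 distinct values, so the equal signals of the 48 h pair understate its spread. Pfkfb4, the testis-type isoform, lay between -0.25 and 0.32 from the control, lower at 24 h and higher on the other toxin arrays.

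Pfkfb3 is a known target of the hypoxia factor HIF, and hypoxia genes outside glycolysis were set beside it. The activity of HIF was not measured. Of 13 such genes 8 lay below the control on all 6 toxin arrays (61.5%, beside 22.6% of all genes). Above it on all 6 lay 1 (7.69%, beside 20.2%). Their medians were -0.59 after 24 h, -0.60 after 36 h, -0.37 and -0.53 after 48 h, and -0.26 and -0.16 after 72 h. Their summed signal was 2287 to 2689 on the toxin arrays, against 3403 in the control. Car9, the carbonic anhydrase most used as a hypoxia marker and abundant in gastric epithelium, had 7.38 after 24 h, 6.83 after 36 h, 7.18 and 7.37 after 48 h, and 7.74 and 8.19 after 72 h, against 8.91 in the control. Both Car9 and Pfkfb3 were lowest at 36 h. HIF is known to act on other glycolytic genes too. Of the 34 genes here, 12 lay below the control on all 6 toxin arrays (35.3%, beside 22.6% of all genes). Apart from Pfkfb3, these included the core enzymes Pfkl, Pfkm, Aldoc, Pgam1 and Pkm and the carrier Slc2a3. On both sides of the control lay Ldha (-0.19 to 0.43), Pgk1 (-0.07 to 0.36), Hk2 (-0.22 to 0.39) and Pfkfb4 (-0.25 to 0.32). Which of the 34 genes HIF acts on in this tissue was not tested. Endothelial genes were lower as well, with 8 of 10 below the control on all 6 toxin arrays and summed signals of 815 to 1013, against 1765 in the control. The part of either list in the Pfkfb3 result was not tested.

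**Figure D3:**
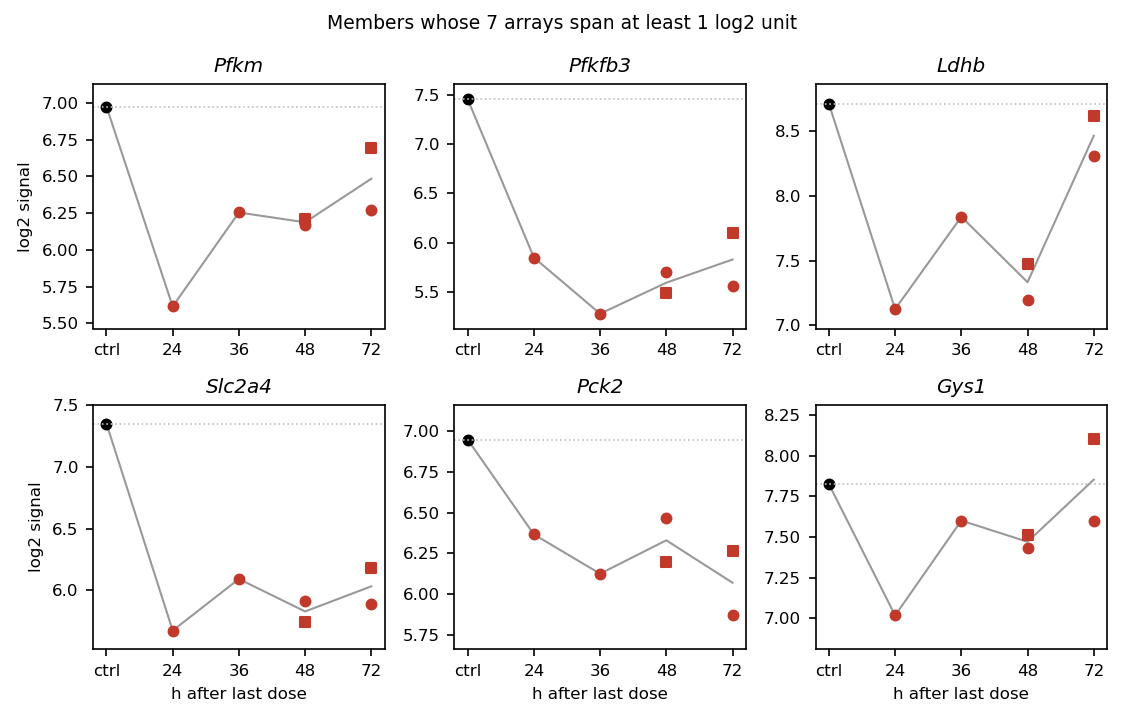
Log2 signal (vertical axis, its own scale in each panel) of the 6 genes whose 7 arrays span at least 1 log2 unit, by time after the last toxin dose in hours (horizontal axis, as categories and not to scale). Red points are toxin arrays (circle, replicate 1 or only array; square, replicate 2), the black point and dotted line are the control array, and the grey line joins group means. Ldhb and Pfkm are lowest at 24 h and nearest the control at 72 h, while Pfkfb3 and Slc2a4 stay more than 1 unit below the control at every time.

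Of the lactate genes only Ldhb left the control level by more than 1 unit. Ldhb, the heart-type lactate dehydrogenase subunit that favours oxidation of lactate to pyruvate, had 7.12 after 24 h, 7.84 after 36 h, 7.19 and 7.47 after 48 h, and 8.31 and 8.62 after 72 h, against 8.71 in the control. Both 72 h arrays lay above all earlier toxin arrays and still below the control, though the second was level with it after quantile normalisation. The limma difference was -1.38 ± 0.21 at 48 h (adjusted p = 0.133) and -0.25 ± 0.21 at 72 h (adjusted p = 0.672). Between 72 h and 48 h it was 1.13 ± 0.17, the highest of the 34 genes (adjusted p = 0.705). Ldha, the muscle-type subunit that favours lactate formation, had 6.91 after 24 h, 6.97 after 36 h, 7.36 and 6.86 after 48 h, and 6.74 and 6.88 after 72 h, against 6.93 in the control. Apart from the first 48 h array, Ldha stayed within 0.19 of the control.

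Slc16a1, the widely expressed monocarboxylate carrier, had 8.53 after 24 h, 8.55 after 36 h, 8.62 and 8.10 after 48 h, and 8.36 and 8.27 after 72 h, against 8.11 in the control. The second 48 h array was level with the control and the others were above it, and the difference at 48 h was 0.25 ± 0.26 (adjusted p = 0.744). Slc16a3, the carrier that exports lactate from glycolytic cells, stayed within 0.09 of the control at a dim signal of 4.72 to 4.87. Among 7 other lactate genes, Slc16a7, a high-affinity carrier for lactate and pyruvate, lay far below the control at every time. It had 8.93 after 24 h, 9.13 after 36 h, 8.80 and 9.23 after 48 h, and 9.48 and 9.91 after 72 h, against 10.94 in the control. Slc16a7 is also a chief cell gene. Of 7 chief cell genes 5, Slc16a7 among them, lay below the control on all 6 toxin arrays (71.4%, beside 22.6% of all genes). Their summed signals were 13936 to 18717, against 24966 in the control. Between 72 h and 48 h the chief cell list had a median of -0.01 and the parietal cell list one of 0.57, where Slc16a7 had 0.68 ± 0.25 (adjusted p = 0.723). These lists share the gene listed as Gif or Cblif. The part of either cell type in the Slc16a7 result was not tested. Emb, embigin, which escorts such carriers to the membrane, had 8.51 after 24 h, 7.34 after 36 h, 8.92 and 8.31 after 48 h, and 8.23 and 7.63 after 72 h, against 7.57 in the control. Emb was above the control except at 36 h.

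Genes of pyruvate entry into mitochondria lay mostly below the control. Of 13 measured, 10 lay below it on all 6 toxin arrays and 0 above, beside 22.6% and 20.2% of all genes. All 13 had a negative difference at 48 h (median -0.43). Of these, 7 had an unadjusted limma p under 0.05, beside 19.7% of all genes, and 0 passed the adjusted test. At 72 h 12 of the 13 were higher than at 48 h, beside 21 of the 34 glycolysis and glucose handling genes. The median difference between 72 h and 48 h was 0.28 for the 13, 0.04 for the 34 and 0.004 for all genes. The medians of the 13 were -0.39 and -0.47 on the 48 h arrays and -0.32 and -0.21 on the 72 h arrays. Mpc1, a subunit of the mitochondrial pyruvate carrier, had 10.13 after 24 h, 10.43 after 36 h, 10.27 and 10.02 after 48 h, and 10.48 and 10.63 after 72 h, against 11.28 in the control. Pdha1, a subunit of pyruvate dehydrogenase, had 9.77 to 10.18 on the toxin arrays, against 10.55 in the control. Pdk2, a kinase that restrains that enzyme, had differences of -0.65 ± 0.14 at 48 h (adjusted p = 0.168) and -0.37 ± 0.14 at 72 h (adjusted p = 0.329). Parietal cells are rich in mitochondria, and the parietal cell list was lower on the same arrays; its part was not tested.

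**Figure D4:**
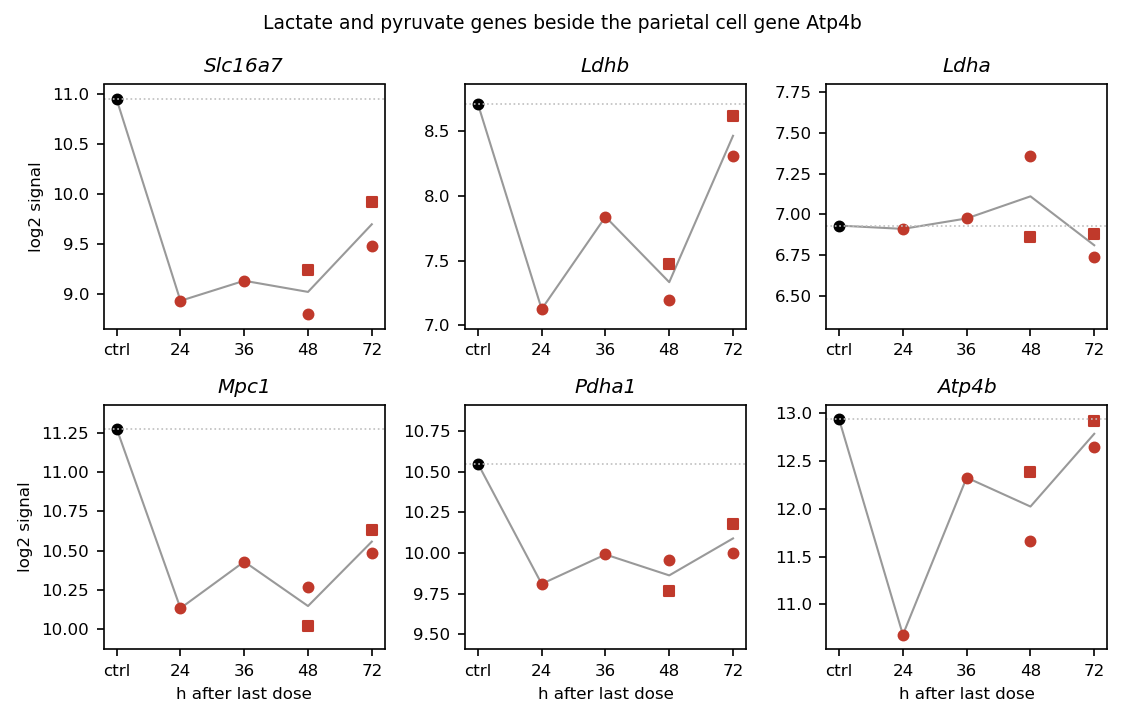
Log2 signal (vertical axis, its own scale in each panel) of the lactate genes Slc16a7, Ldhb and Ldha, the pyruvate genes Mpc1 and Pdha1 and the parietal cell gene Atp4b, by hours after the last toxin dose (horizontal axis, as categories and not to scale), with symbols for arrays as circle for replicate 1 or the only array and square for replicate 2, red for toxin and black for control, and a grey line through group means. All panels but that of Ldha have every toxin array below the control array and the lowest signals at 24 h or 48 h.

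Of the glucose carriers Slc2a4 and Slc2a3 lay below the control on every toxin array, with the larger differences in Slc2a4. Slc2a4, the insulin-responsive carrier of muscle and fat, had 5.67 after 24 h, 6.09 after 36 h, 5.92 and 5.74 after 48 h, and 5.89 and 6.18 after 72 h, against 7.35 in the control. The toxin arrays lay within about 0.5 of each other, at 31.3% to 44.4% of the control's linear signal. Its difference was -1.52 ± 0.17 at 48 h (adjusted p = 0.121) and -1.32 ± 0.17 at 72 h (adjusted p = 0.150). With only the genes of at least 6 distinct values tested, Slc2a4 passed at 48 h (-1.52 ± 0.18, adjusted p = 0.0397), where its other settings gave an adjusted p of 0.0634 to 0.288. Slc2a1, the general glucose carrier, had 8.50 after 24 h, 8.87 after 36 h, 8.94 and 8.58 after 48 h, and 8.85 and 8.86 after 72 h, against 8.94 in the control. Slc2a1 was lowest on the 24 h and second 48 h arrays and level with the control on the first 48 h array. Slc2a3, a high-affinity carrier, had a dim signal of 4.09 to 4.41 on the toxin arrays, against 4.73 in the control.

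Markers of fat and skeletal muscle were set beside Slc2a4. The defining fat genes Adipoq and Plin1 were dim on all arrays, at 2.97 to 3.59 and 4.36 to 4.88. Of 10 fat genes 3 lay below the control on all 6 toxin arrays and 1 above, beside 22.6% and 20.2% of all genes. The summed signal of the fat genes was 892 to 1385 on the toxin arrays, against 2015 in the control. Lpl, which fat and other tissues share, had 6.64 after 24 h, 6.45 after 36 h, 6.60 and 6.45 after 48 h, and 6.72 and 7.79 after 72 h, against 9.76 in the control. Lpl had the lowest limma difference of the fat genes at 48 h, -3.23. Medians of the fat genes were -0.30 after 24 h, 0.01 after 36 h, -0.24 and -0.28 after 48 h, and -0.09 and 0.08 after 72 h. At 72 h 6 fat genes were higher than the control and 4 lower. Skeletal muscle genes stayed level, with summed signals of 303 to 340, against 295 in the control, and medians between -0.03 and 0.09. The part of fat in the Slc2a4 result was not tested. Slc2a12, a further carrier of the insulin-responsive kind, had 4.18 after 24 h, 4.71 after 36 h, 4.78 on both 48 h arrays, and 4.79 and 4.67 after 72 h, against 6.09 in the control. Its difference at 48 h was -1.31 ± 0.07 (adjusted p = 0.120). Its 48 h arrays were level at a dim signal, so this SE may understate its spread. The sodium-glucose carrier Slc5a1 was dim, at 3.38 to 3.59 on the toxin arrays, against 4.13 in the control.

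Both measured pentose phosphate genes lay above the control on all 6 toxin arrays. Pgd, phosphogluconate dehydrogenase, which makes NADPH, had 10.08 after 24 h, 10.28 after 36 h, 10.26 and 9.90 after 48 h, and 10.10 and 10.08 after 72 h, against 9.65 in the control. The differences were 0.43 ± 0.18 at 48 h (adjusted p = 0.356) and 0.44 ± 0.18 at 72 h (adjusted p = 0.367), and the 48 h arrays lay 0.61 and 0.24 above the control. Taldo1, transaldolase, which links the route back to glycolysis, had 7.84 after 24 h, 7.94 after 36 h, 7.88 and 7.81 after 48 h, and 8.04 and 7.98 after 72 h, against 7.48 in the control. Taldo1 was higher by 0.36 ± 0.06 at 48 h (adjusted p = 0.147) and by 0.53 ± 0.06 at 72 h (adjusted p = 0.148), which is 1.25 to 1.47 times the control on single toxin arrays. Of 8 other genes of the route 1 lay above the control on all 6 toxin arrays (12.5%, beside 20.2% of all genes) and 2 below (25.0%, beside 22.6%).

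Rpia, the isomerase that makes ribose phosphate, had 7.51 after 24 h, 7.46 after 36 h, 7.25 and 7.39 after 48 h, and 7.48 and 7.66 after 72 h, against 6.85 in the control. Pgls, which acts just before Pgd, lay on both sides of the control, at -0.08 at 24 h and 0.09 ± 0.14 at 48 h (adjusted p = 0.835). Myc, a regulator of growth and of glycolytic genes, had 8.02 after 24 h, 7.92 after 36 h, 7.79 and 7.91 after 48 h, and 7.61 and 7.47 after 72 h, against 7.05 in the control. Myc was highest at 24 h and nearest the control at 72 h, with a slope of -0.25 ± 0.04 per 24 h (adjusted p = 0.419). Medians of the cell division genes were likewise highest at 24 h and lowest at 72 h, at 1.64 after 24 h, 1.34 after 36 h, 1.38 and 1.18 after 48 h, and 0.89 and 0.58 after 72 h. Their part in the pentose phosphate values was not tested.

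The gluconeogenic genes went separate ways. Fbp2, the muscle-type fructose bisphosphatase, had 8.04 after 24 h, 8.34 after 36 h, 8.10 and 7.92 after 48 h, and 7.87 and 7.86 after 72 h, against 7.54 in the control. Fbp2 was highest at 36 h and all toxin arrays lay above the control, by 0.47 ± 0.10 at 48 h (adjusted p = 0.169) and 0.33 ± 0.10 at 72 h (adjusted p = 0.263). Pck2, the mitochondrial phosphoenolpyruvate carboxykinase, had 6.37 after 24 h, 6.12 after 36 h, 6.46 and 6.20 after 48 h, and 5.87 and 6.26 after 72 h, against 6.95 in the control. Its difference was -0.62 ± 0.24 at 48 h (adjusted p = 0.308) and -0.88 ± 0.24 at 72 h (adjusted p = 0.229), and no toxin array reached the control. Fbp1, the liver-type bisphosphatase, was dim at 3.71 to 3.83. G6pc, the phosphatase that frees glucose in liver, was dim as well, at 3.50 to 3.98, and Slc37a4, its partner carrier, stayed between 6.15 and 6.50.

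Pck1, the cytosolic carboxykinase typical of liver and fat, had 5.02 after 24 h, 4.87 after 36 h, 4.84 and 5.69 after 48 h, and 5.16 and 4.996 after 72 h, against 4.87 in the control. The second 48 h array stood alone, 0.85 above its partner, the widest gap of any of the 34 genes in that pair. On that array Alb was 5.11, Ahsg 1.60 and Cps1 1.57 above the control, while Apoa1 lay at -2.80, Ttr at -1.38 and Apob at -0.28 from it and Serpina1a was level. The median of the list there was 0.00, and 6 of its 7 genes were higher than on the first 48 h array. The summed signal of 7 hepatocyte genes was 1947 there and 663 to 1506 on the other toxin arrays, against 2719 in the control. The part of liver transcripts in the Pck1 value was not tested. Across the pair 11 of the 34 genes were higher on the second 48 h array, 21 were lower and 2 were equal. The summed signal of all genes was lower there too, at 2555621, against 2672051 on the first 48 h array. No count across the pair was made over all genes to set beside these 34 or the hepatocyte genes.

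**Figure D5:**
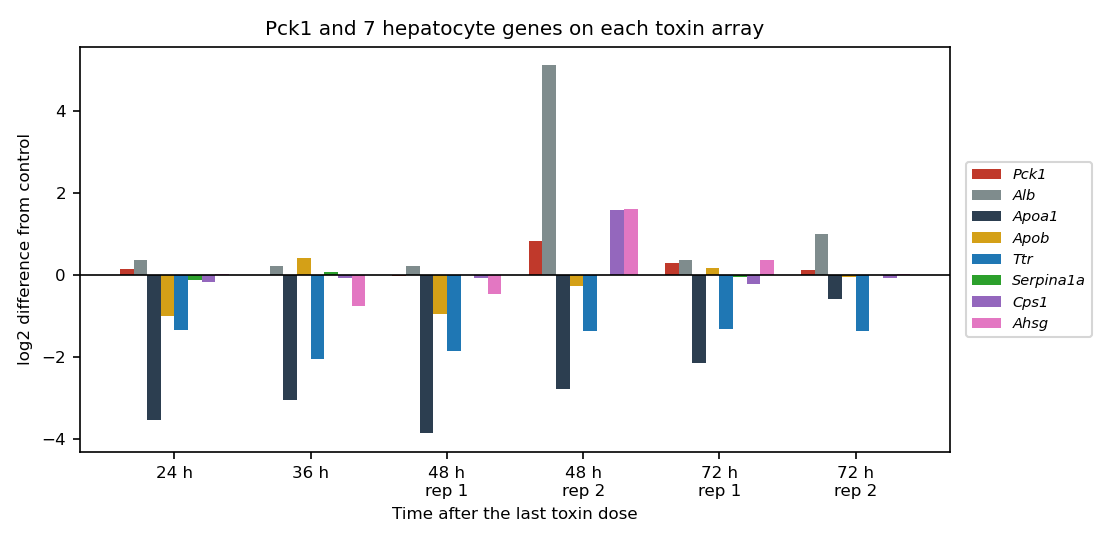
Bars give the log2 difference from the control array (vertical axis, from 0) of Pck1 and of the 7 measured hepatocyte genes on each toxin array (horizontal axis, by time after the last dose). Pck1, Alb, Cps1 and Ahsg have their highest bars on the second 48 h array, where Pck1 is 0.82 above the control, while Apoa1, Ttr and Apob are below the control there.

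Among the glycogen genes Gys1 lay on both sides of the control at 72 h, while Pygm stayed below it. Gys1, the glycogen synthase of tissues other than liver, had 7.02 after 24 h, 7.60 after 36 h, 7.43 and 7.51 after 48 h, and 7.60 and 8.10 after 72 h, against 7.82 in the control. The 24 h array was lowest and the second 72 h array lay above the control. The slope was 0.35 ± 0.11 per 24 h (adjusted p = 0.507), or 0.23 without the second 72 h array, and the difference at 72 h was 0.03 ± 0.25. Pygm, the muscle-type glycogen phosphorylase, had 5.15 after 24 h, 5.15 after 36 h, 5.66 and 5.08 after 48 h, and 5.04 and 5.06 after 72 h, against 5.72 in the control. Only the first 48 h array came near the control. Pygb and Pygl, the brain and liver types, stayed between -0.04 and 0.42 and between -0.41 and 0.06 of the control.

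Pgm2, of the phosphoglucomutase family, is the gene that now bears this symbol, matched by its Entrez identifier. Its older symbol was Pgm1, and the symbols of both genes were once exchanged. Which of them the list meant cannot be known here, so the place of Pgm2 among the glycogen genes is uncertain. Pgm2 had 8.91 after 24 h, 8.98 after 36 h, 9.10 and 8.70 after 48 h, and 8.93 on both 72 h arrays, against 8.65 in the control. The second 48 h array was within 0.05 of the control and the others were 0.26 to 0.45 above it, and the difference at 48 h was 0.25 ± 0.20 (adjusted p = 0.629). Of 17 other glycogen genes 9 lay below the control on all 6 toxin arrays (52.9%, beside 22.6% of all genes) and 3 above (17.6%, beside 20.2%). Gbe1, the branching enzyme, had 6.74 after 24 h, 6.85 after 36 h, 6.53 and 6.73 after 48 h, and 6.85 and 7.05 after 72 h, against 7.77 in the control. No Gbe1 toxin array came within 0.7 of the control. Gys2, the liver-type synthase, was dim, at 4.93 at 24 h and 3.64 to 4.38 later, against 3.89 in the control.

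Among 9 other hexose and triose enzymes 4 lay below the control on all 6 toxin arrays (44.4%, beside 22.6% of all genes) and 3 above (33.3%, beside 20.2%). Gpd1, the cytosolic glycerol phosphate dehydrogenase, had 7.03 after 24 h, 7.43 after 36 h, 6.92 and 7.11 after 48 h, and 7.61 and 7.88 after 72 h, against 7.98 in the control. Gpd1 was lowest on the first 48 h array and nearest the control at 72 h, with 0.73 ± 0.14 between 72 h and 48 h (adjusted p = 0.705). Bpgm, bisphosphoglycerate mutase, stayed low, at 7.25 to 7.47 on the toxin arrays, against 7.98 in the control. Egln3, an oxygen-sensing prolyl hydroxylase, lay between 8.77 and 9.31 on the toxin arrays, against 9.57 in the control. Over all 79 other genes of glucose handling, 35 lay below the control on every toxin array (44.3%, beside 22.6% of all genes). Above it on every toxin array lay 10 (12.7%, beside 20.2%). At an unadjusted p under 0.05 it was 4 higher and 22 lower at 48 h (32.9%, beside 19.7% of all genes), and 2 higher and 16 lower at 72 h (22.8%, beside 17.9%), with 0 passing the adjusted test in any comparison.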

How the data were processed

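Total RNA was labelled as biotinylated cDNA and hybridised to 1 Affymetrix array per sample, per the labels' protocols. The deposited values are log2 signals made by the authors with RMA in Partek, per the submitters' processing notes; no version was given in the sources used here. They were used without further scaling. Arrays have no read depth, so the number of arrays limits the precision.

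Probe sets with a single annotated gene were kept (23521 of 41345, with 1814 for several genes and 16010 for none), and the one with the highest mean was used per gene. limma 3.58.1 in R 4.3.3 fitted group means over all 22180 genes and, over the 6 toxin arrays, a slope per 24 h, with Benjamini-Hochberg adjustment over all genes. Residual degrees of freedom were 2 and 4. The lone control is assumed to vary like the 48 h and 72 h pairs, which the design text calls independent; p-values cover no more than the spread seen within those pairs. The 24 h and 36 h arrays were compared as values.

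The genes, lists and tests were chosen with earlier results of these data known. Array values are printed for genes spanning at least 1 log2 unit and for the highest mean of each role, and 2 genes per pathway list are named; Pfkl, Pkm, Pgam1, Tpi1, Pgk1, Ldha, Taldo1, Pck1, Pygm, Pdha1 and some others given in ranges were added after their values were seen. The pipeline was tested on simulated data.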

Additional observations from a re-analysis of the deposited data

Results flagged for a closer look

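Tpi1 and Pgk1 were singled out because both 72 h arrays lay above the control and both 48 h arrays below it. The difference between 72 h and 48 h was 0.31 for Tpi1 and 0.32 for Pgk1 (limma, adjusted p = 0.705 each). With quantile normalisation repeated, Pgk1 lay 0.03 and 0.10 above the control on the 48 h arrays.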

How the results depend on the processing

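With 1 control array, traits of that array enter every comparison with it. The 16 gene results followed were those of named genes with an unadjusted limma p under 0.05 in the main fit. Under 160 alternative fits, 159 kept their direction and their side of the threshold, 1 (Slc2a4 at 48 h) newly passed and 0 reversed. All 16 missed the adjusted threshold in the main fit, where no gene passed, so keeping that side says little of robustness. With only genes of at least 6 distinct values, 1 of the glycolysis and glucose handling genes was called at 48 h. Over all genes, where 0 were called, 143 were called at 48 h and 52 at 72 h in that setting, 77 and 13 with array medians subtracted, and 12 and 6 with quantile normalisation repeated. The fit's prior degrees of freedom were 2.48 to 3.18 in those settings and 1.15 with all genes as deposited; the cause of the shifts was not tested. The median of the genes at 24 h moved to -0.13 with quantile normalisation and to -0.23 with dim genes left out, and at 36 h, from below 0, to 0.0126 with quantile normalisation. Leaving out single arrays gave medians of -0.110 to -0.0452 at 48 h and -0.0453 to -0.0021 at 72 h. The further settings, chosen after seeing the data, gave 9 genes above the control throughout with quantile normalisation (26.5%, beside 23.0% of all genes), and 12 to 21 genes with 72 h above 48 h when single arrays were left out (35.3% to 61.8%, beside 30.1% to 34.2%). In the slope, 2 genes (5.88%, beside 6.9% of all genes) had an unadjusted p under 0.05 without the 24 h array and 1 (2.94%, beside 6.52%) without the second 72 h array. Replicate numbers shared by the 48 h and 72 h arrays do not pair them (correlation -0.13 across genes); with the number as a replicate block 0 of the genes were called in any comparison, and those with an unadjusted p under 0.05 numbered 9 at 48 h (26.5%, beside 14.9% of all genes), 5 at 72 h (14.7%, beside 13.5%), 3 between 72 h and 48 h (8.82%, beside 6.05%) and 6 in the slope (17.6%, beside 8.09%).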
